A study of Homo sapiens with 8 samples.

Results

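The vascular endothelial growth factor (VEGF) genes examined here comprise 4 ligands, VEGFA, VEGFB, VEGFC and PGF, and the 3 tyrosine kinase receptors FLT1, KDR and FLT4. They are 7 of the 30386 genes in the deposited count table and were selected by name. The study sequenced RNA of 2 kinds of cell grown from WTC-TJP1, an established line of human induced pluripotent stem cells: endothelial cells, named iEC, and endothelial cells of a retinal type, named iREC. Each group held 4 samples, lettered C, D, E and F, all at passage 1. The labels give no treatment and do not say how the retinal cells were made. The design text calls the differentiations matched, but all samples come from a single line, and nothing in the labels says whether the letters mark separate differentiations, so the p-values measure the spread between these samples only.

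VEGF ligands are secreted dimers that control the growth, survival and permeability of blood vessels. VEGFA binds KDR, the main signalling receptor of blood endothelium, and binds FLT1, which holds the ligand tightly, signals weakly and is also made as a soluble decoy. PGF and VEGFB bind FLT1 but not KDR, whereas VEGFC binds FLT4, the receptor of lymphatic endothelium and of sprouting vessels, and after proteolytic processing also KDR. In the retina, VEGFA drives both vessel growth and leakage and is the target of drugs given for neovascular eye disease.

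Of the ligands, VEGFA and PGF differed between the groups. VEGFA was 4.65-fold higher and PGF 13.8-fold lower in iREC, each without overlap between the groups. The ligands VEGFB and VEGFC and the receptors FLT1, KDR and FLT4 did not pass the threshold. Thus 2 of the 7 passed an adjusted p of 0.05 in the edgeR quasi-likelihood test and are termed called, against 25.0% of the 15330 genes tested. In each direction 1 gene was called, against 13.2% of tested genes called higher and 11.7% called lower. The groups did not overlap for the same 2 of 7, against 29.1% of tested genes. The authors' deposited table, with 16.3% of all its genes at an adjusted p under 0.05, lists VEGFA and PGF as changed and none of the other 5. The members' share is close to the background, so the count itself says nothing particular about the family.

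The promoter of PGF, the ligand that fell, is shown with those of FLT1 and KDR, the abundant receptors whose levels were not shown to differ. Each sequence runs from 250 bases before to 50 bases after a RefSeq start site, on the minus strand of GRCh38.p14, with GGAA and its reverse complement TTCC in capitals. PGF has a further RefSeq start at 74955597, and the start shown, at 74955764, is the one nearer to the annotated 5′ end of the gene. GGAA is the core letters bound by ETS factors, a family with a known role in endothelial transcription.
PGF, chr14:74955715-74956014: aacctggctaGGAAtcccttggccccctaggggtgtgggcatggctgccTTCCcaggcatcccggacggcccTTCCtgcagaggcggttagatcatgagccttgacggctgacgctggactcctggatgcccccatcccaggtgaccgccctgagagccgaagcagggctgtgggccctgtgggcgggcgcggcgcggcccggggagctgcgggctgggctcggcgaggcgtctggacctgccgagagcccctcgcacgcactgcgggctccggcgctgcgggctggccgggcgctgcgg
FLT1, chr13:28495079-28495378: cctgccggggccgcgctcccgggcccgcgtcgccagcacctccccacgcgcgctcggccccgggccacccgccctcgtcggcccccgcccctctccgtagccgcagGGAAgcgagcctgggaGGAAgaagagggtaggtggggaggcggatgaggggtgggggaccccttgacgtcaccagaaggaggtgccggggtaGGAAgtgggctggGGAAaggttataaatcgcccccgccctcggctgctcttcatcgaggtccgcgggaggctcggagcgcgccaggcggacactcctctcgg
KDR, chr4:55125546-55125845: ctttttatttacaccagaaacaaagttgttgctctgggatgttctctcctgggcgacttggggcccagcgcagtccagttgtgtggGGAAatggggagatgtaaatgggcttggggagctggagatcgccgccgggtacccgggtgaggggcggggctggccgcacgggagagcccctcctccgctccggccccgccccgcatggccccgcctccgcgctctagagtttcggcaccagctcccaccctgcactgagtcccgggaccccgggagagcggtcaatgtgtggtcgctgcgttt
The GGAA core occurred 3 times in the PGF window, 4 times in the FLT1 window and 1 time in the KDR window, counting both strands. It is too common to set these genes apart, since 95.5% of 35116 RefSeq promoter windows of the same length held at least 1 match. The core of the hypoxia response element, searched as ACGTG on both strands, had 0 matches in each of the 3 windows and occurred in 21.4% of all windows. The SP1 box GGGCGG, searched on both strands, had 2 matches in the PGF window shown, 4 in that of the other PGF start, 3 in FLT1 and 2 in KDR, against 45.0% of all windows with a match. G and C made up 73%, 77.7%, 73.3% and 65% of these windows in the same order, against a median of 58.7% over all promoters. The box holds only G and C, and no allowance was made for this composition. The RefSeq table held promoters for 5 of the 7 genes and none for VEGFA and FLT4. Those of VEGFB, with 9 SP1 box matches, and of VEGFC, with 2, were in it but are not shown.

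VEGFA (ENSG00000112715, chromosome 6, 43770184 to 43786487, GRCh38) is the ligand of both FLT1 and KDR. Its level, in CPM (counts scaled to a common library size), with libraries scaled by the trimmed mean of M-values (TMM), was 4.68 in iEC C, 4.87 in D, 9.47 in E and 9.52 in F. In iREC it was 23.9 in C, 36.5 in D, 29.4 in E and 43.1 CPM in F. Every iREC sample lay above every iEC sample, and within iEC samples E and F were about double C and D. The means were 7.13 ± 2.73 CPM in iEC and 33.2 ± 8.37 CPM in iREC (SD, n = 4). The log2 fold change was 2.22 ± 0.30 (SE, 95% interval 1.53 to 2.90, edgeR adjusted p 0.000899). VEGFA is among the less deeply counted of these genes, with 72 to 160 counts in iEC and 365 to 658 in iREC. In bulk RNA, more cells that make a transcript and more transcript per cell cannot be told apart.

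PGF (ENSG00000119630, chromosome 14, 74941834 to 74955784), placental growth factor, is a ligand of FLT1. It measured 101, 55.1, 93.8 and 87.2 CPM in iEC C, D, E and F. In iREC it measured 2.81, 3.64, 4.15 and 13.8 CPM in the same order of letters. The lowest iEC sample was still above the highest iREC sample, iREC F, which itself stood well above the other iREC samples. The means were 84.2 ± 20.2 and 6.11 ± 5.17 CPM (SD, n = 4), with a log2 fold change of -3.78 ± 0.51 (SE, 95% interval -4.92 to -2.64, edgeR adjusted p 0.000777). Without iREC F the log2 fold change was -4.57 (edgeR adjusted p 2.8e-05).

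VEGFB (ENSG00000173511, chromosome 11, 64234538 to 64238793), a further FLT1 ligand, varied widely in iEC, at 13.0 CPM in C, 17.2 in D, 29.6 in E and 46.2 in F. The iREC samples were close together, at 28.7, 27.6, 33.8 and 26.6 CPM, and all lay inside the iEC range. The log2 fold change was 0.14 ± 0.35 (SE, 95% interval -0.64 to 0.92, edgeR adjusted p 0.804). Its sign changed without iEC C or without iEC D.

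VEGFC (ENSG00000150630, chromosome 4, 176683538 to 176792727), the ligand of FLT4, stood at 3.06, 17.3, 4.62 and 7.59 CPM in iEC C, D, E and F. In iREC it stood at 23.3, 15.6, 15.0 and 16.6 CPM. The groups overlapped only through iEC D, which exceeded iREC D, E and F. Over all samples the log2 fold change was 1.11 ± 0.48 (SE, edgeR adjusted p 0.118), so the difference did not pass. Without iEC D it was 1.78 (edgeR adjusted p 0.00739), and limma-voom on all samples also called it (1.40, adjusted p 0.0389). The share of all genes called was 22.7% without iEC D and 24.6% by limma-voom. When each of the 8 samples was left out in turn, the edgeR adjusted p ran from 0.00739 to 0.244. The authors' deposited table lists VEGFC at an adjusted p of 0.0690.

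The remaining ligand of the family, VEGFD, was near the floor. It had 2, 5, 0 and 3 counts in iEC C, D, E and F and 6, 7, 10 and 0 counts in iREC, and it did not pass the filter on low counts. A count of 3 corresponds to 0.178 to 0.215 CPM in these libraries, so no difference in VEGFD was detectable at this depth.

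KDR (ENSG00000128052, chromosome 4, 55078259 to 55125595), the principal VEGFA receptor, was the most abundant member per kilobase of the deposited length in both groups. Its levels in iEC C, D, E and F were 2061, 2837, 1551 and 1682 CPM. In iREC they were 2580, 2787, 3807 and 1332 CPM. The groups overlapped fully, because iREC F was the lowest of all 8 samples and iREC E the highest. Its estimated log2 difference was 0.37 ± 0.31 (SE, edgeR adjusted p 0.424), with a 95% interval from 0.794-fold to 2.10-fold. Without iREC F the log2 fold change was 0.59 (edgeR adjusted p 0.106).

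FLT1 (ENSG00000102755, chromosome 13, 28300344 to 28495145), the receptor of VEGFA, VEGFB and PGF, stood at 1304, 2239, 966 and 975 CPM in iEC C, D, E and F. In iREC the values were 1571, 1325, 1526 and 901 CPM. The highest sample was iEC D and the lowest iREC F, and the other 6 samples mixed between them. The log2 fold change was -0.04 ± 0.30 (SE, edgeR adjusted p 0.933), with a 95% interval from 0.612-fold to 1.54-fold. Its sign followed the samples included, at 0.30 without iEC D and -0.17 without iEC F.

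FLT4 (ENSG00000037280, chromosome 5, 180601506 to 180649624), the VEGFC receptor, had the smallest standard error of the 7 (0.18 on the log2 scale). It measured 211, 255, 164 and 172 CPM in iEC and 207, 185, 250 and 165 CPM in iREC, in the order C, D, E and F. The group means of 200.6 ± 41.8 and 201.7 ± 36.7 CPM (SD, n = 4) almost coincided. The 95% interval of the difference, 0.758-fold to 1.33-fold, was the narrowest of the 7 (edgeR adjusted p 0.981).

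**Figure D1:**
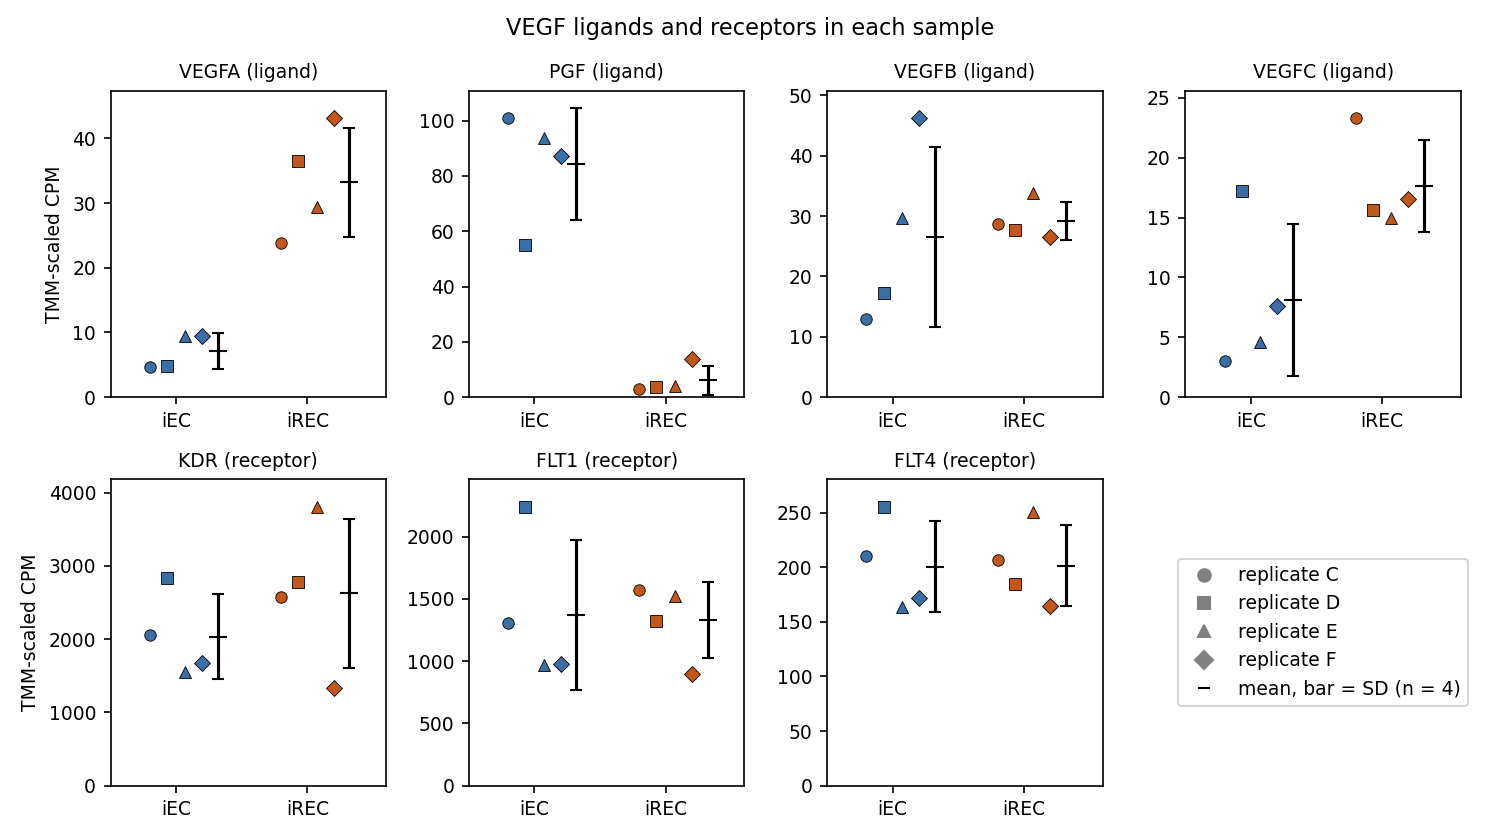
Level of each gene in TMM-scaled CPM (y axis, from 0) in the 4 iEC and 4 iREC samples; symbols mark the replicate letter, and the black mark is the mean with its SD. VEGFA (at most 9.52 CPM in iEC, at least 23.9 in iREC) and PGF (at least 55.1 in iEC, at most 13.8 in iREC) separate the groups, while the receptors overlap.

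**Figure D2:**
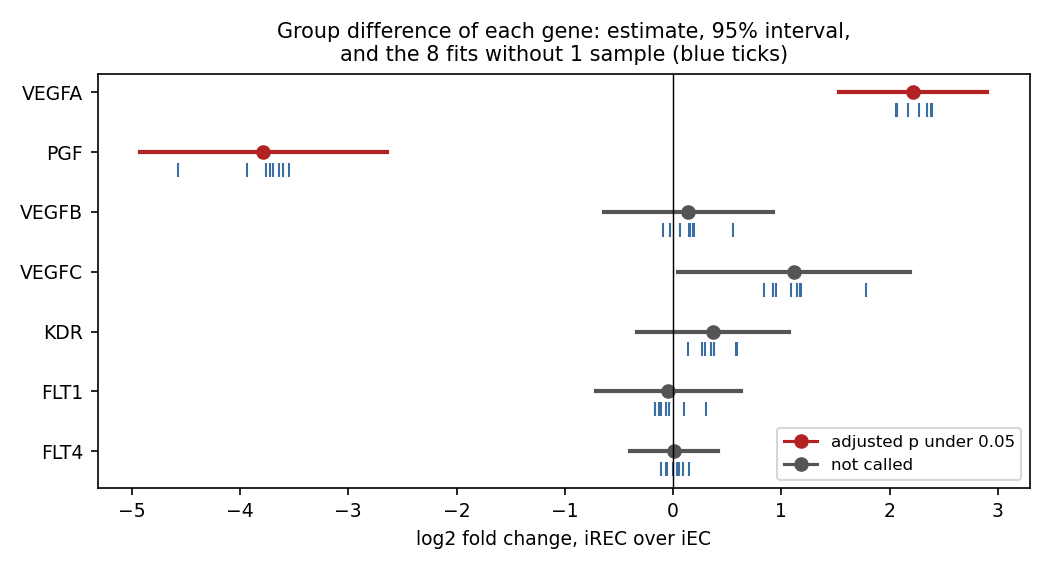
Log2 fold change of iREC over iEC (x axis) for each gene, with its 95% interval as a line and blue ticks for the 8 fits lacking a sample; red marks an edgeR adjusted p under 0.05. VEGFA at 2.22 and PGF at -3.78 are called, and the tick of VEGFC at 1.78 is the fit without iEC D.

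Variation within iEC ran along the same line for several members. Samples C and D had lower VEGFA and VEGFB and higher KDR, FLT1 and FLT4 than samples E and F. KDR, for example, did not exceed 1682 CPM in E and F and was at least 2061 CPM in C and D. The highest value exceeded the lowest by 5.65-fold for VEGFC, 3.55-fold for VEGFB, 2.32-fold for FLT1 and 2.03-fold for VEGFA in iEC. In iREC the widest spread was that of PGF, 4.91-fold, followed by KDR at 2.86-fold. On the CPM scale iREC F passed Dixon's 95% criterion among the iREC samples for PGF, and on the log2 scale it did not.

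iREC F also stood apart in markers of other cell types. The summed level of 13 mural and mesenchymal markers was 4249 CPM there, against 574 to 1189 CPM in iREC C, D and E and 212 to 420 CPM in iEC. That of 6 epithelial markers was 4924 CPM there, against 302 to 1117 CPM in iREC C, D and E and 391 to 1174 CPM in iEC. That of 6 pluripotency markers was 518 CPM there, 58.1 to 184 CPM in iREC C, D and E and 12.9 to 52.9 CPM in iEC. LIN28A, called higher in iREC (edgeR adjusted p 0.0242), gave most of that sum except in iREC C and iEC D. In iREC C, LIN28A stood at 20.5 CPM, below its 32.4 CPM in iEC C, and DNMT3B at 37.4 CPM. In iEC D they stood at 15.0 and 25.7 CPM. DNMT3B was higher in every iREC sample than in any iEC sample but was not called (edgeR adjusted p 0.0650). The 10 endothelial markers were detected in every sample, and their sum was lowest in iREC F, at 3086 CPM, with 4867 to 6529 CPM elsewhere. That sum hides opposite shifts between the groups. Of the 10, 3 were called higher in iREC (EMCN, TEK and CLDN5, log2 fold change 6.68, 3.82 and 0.79). A further 4 were called lower (PECAM1, ROBO4, ESAM and CDH5, at -1.57, -1.33, -0.94 and -0.76). iREC F was also the sample with the highest VEGFA, the highest iREC PGF and the lowest KDR and FLT1. Without it, VEGFA was 4.19-fold higher (edgeR adjusted p 0.00172, with 26.7% of all tested genes called). The mural and mesenchymal sum and the pluripotency sum were above iEC in all 4 iREC samples. In iREC C and E most of the mural and mesenchymal sum was the single gene TAGLN, at 732 of 897 CPM and 318 of 574 CPM. TAGLN did not exceed 58.2 CPM in iEC. The part of these sums in the VEGFA and PGF differences was not tested. Of the mural and mesenchymal markers, 2 of 8 tested were called higher (TAGLN and LUM) and 1 lower (RGS5), and the other 5 were not called. In iREC F, PDGFRB stood at 127 CPM, CSPG4 at 94.0 and ACTA2 at 427, whereas KCNJ8 and ABCC9 did not exceed 0.590 CPM in any sample. The 6 retinal pigment epithelium and neuron markers summed to 3.12 to 4.74 CPM in iEC and 2.62 to 9.56 CPM in iREC, and BEST1 among them was called higher in iREC (edgeR adjusted p 0.0222). The 5 blood and macrophage markers summed to 24.7 to 47.5 CPM in iEC and 16.8 to 20.0 CPM in iREC. Of these, PTPRC had 0 counts in all iEC samples and 0.794 to 2.75 CPM in iREC, where it was called higher (edgeR adjusted p 0.00243), and RUNX1 was called lower.

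The balance between members within each library was described as a log2 ratio of levels per kilobase, which does not depend on library scaling. PGF over VEGFA was 5.69, 4.77, 4.58 and 4.47 in iEC C, D, E and F. In iREC it was -1.80, -2.04, -1.54 and -0.36. Every iEC library held more PGF than VEGFA per kilobase of the deposited length and every iREC library less. The group means differed by -6.31 on the log2 scale, a 79.4-fold lower ratio. Since VEGFA and PGF were each without overlap in opposite directions, the separation of this ratio follows from their own values, and it is given as a description with no test. The level of the ratio depends on the length used, but the difference between the groups does not.

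The other 3 ratios were tested by exact two-sided permutation over samples, with p adjusted over all 4 ratios computed. With 4 samples against 4 the smallest possible exact p is 0.0286. A single ratio alone at that p is adjusted to 0.114, so a failure to pass says little here. For the receptors the log2 ratio of FLT1 to KDR averaged -1.56 ± 0.19 in iEC and -1.86 ± 0.34 in iREC (SD, n = 4; exact permutation p 0.229, adjusted 0.286). FLT4 to KDR averaged -3.75 ± 0.10 and -4.06 ± 0.43 (exact permutation p 0.229, adjusted 0.286). The groups overlapped in both ratios, for FLT4 to KDR through iREC F alone. Without iREC F the difference went from -0.30 to -0.50 for FLT4 to KDR and from -0.30 to -0.42 for FLT1 to KDR (exact permutation, adjusted p 0.0571 and 0.0762). Since iREC F alone made the groups overlap in FLT4 to KDR, leaving it out fixed their separation in advance. Its exact p was then the smallest that these sample numbers allow, and no conclusion is drawn from it. Both adjusted p values were also made smaller by the ratio of PGF to VEGFA. That ratio is counted in the adjustment although its separation follows from its own members. VEGFC to VEGFA averaged 2.54 ± 1.27 and 1.67 ± 0.60 (exact permutation p 0.286, adjusted 0.286), with iEC D, at 4.40, far above the other iEC libraries at 1.54 to 2.25. Without iEC D that difference went from -0.86 to -0.25 (exact permutation, adjusted p 0.543).

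Levels of different genes can be set side by side only per length, and the length matters for this family. The deposited length of VEGFA is 14431 bases, 4.08 times its longest protein-coding transcript in the GENCODE 29 basic set (3535 bases). The factor was 3.09 for PGF, 1.77 for FLT1, 1.51 for FLT4 and between 1.08 and 1.17 for KDR, VEGFB and VEGFC. Per kilobase of the deposited length, the order in iEC was KDR (309.7 CPM per kilobase), FLT1 (109), FLT4 (22.7), VEGFB (17.1), PGF (14.1), VEGFC (3.36) and VEGFA (0.494). In iREC it was KDR (400.2), FLT1 (106), FLT4 (22.8), VEGFB (18.9), VEGFC (7.28), VEGFA (2.30) and PGF (1.02). FLT4 and VEGFB did not differ beyond their spread in either group. VEGFB and PGF overlapped in iEC and VEGFA and PGF in iREC. The deposited FPKM values gave the same order in both groups.

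Both transcript lengths tried next were chosen after the data were seen. With the median length of a gene's coding transcripts, KDR lost the first place to FLT1 in both groups, at 342 against 711 CPM per kilobase in iEC without overlap and at 442 against 690.5 in iREC with overlap. VEGFC was then last in iEC, at 3.94 CPM per kilobase, overlapping VEGFA at 6.39. With the longest coding transcript, PGF moved to the third place in iEC at 43.7 CPM per kilobase, overlapping FLT4 at 34.2. VEGFA, at 9.39 CPM per kilobase in iREC, then ranked above VEGFC at 8.53, and these overlapped. KDR at 336 and FLT1 at 193 CPM per kilobase overlapped in iEC. On this scale PGF made up 63.9% ± 12.5 of the summed level of the 4 ligands in iEC and 7.21% ± 5.47 in iREC (SD, n = 4). VEGFA made up 2.87% ± 0.65 and 22.1% ± 4.65, and VEGFB 26.8% ± 10.2 and 50.3% ± 6.88. On this scale the largest ligand share was that of PGF in each iEC sample and that of VEGFB in each iREC sample. Of the receptor sum, KDR made up 60.2% ± 2.52 in iEC and 64.9% ± 5.47 in iREC.

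The shares depended on the length. On the deposited length PGF made up 42.1% and VEGFB 46.1% of the ligand sum in iEC, with VEGFB above PGF in D, E and F, and VEGFA made up 7.86% in iREC. On the median transcript length VEGFA had the largest mean share in iREC, 44.2%, and KDR made up 31.8% of the receptor sum in iEC. On each of the 3 lengths the share of PGF was lower, and that of VEGFA higher, in every iREC sample than in any iEC sample.

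**Figure D3:**
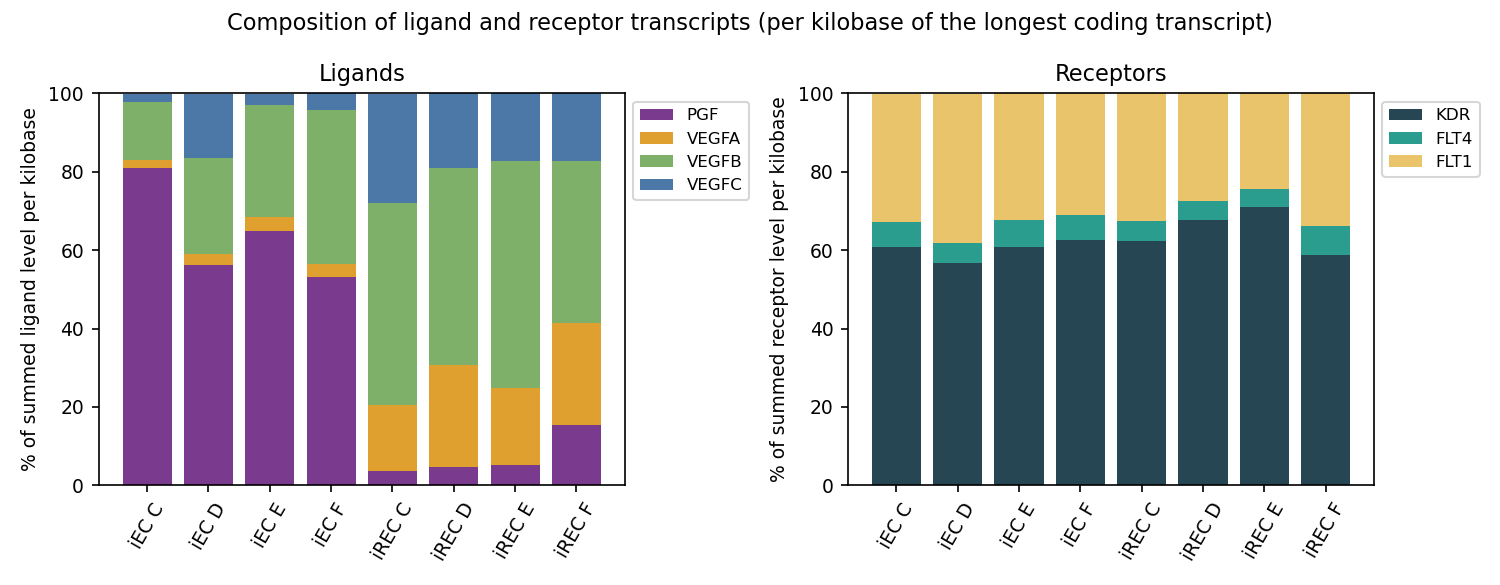
Share of each gene (y axis, percent) in the summed level of the 4 ligands (left) and of the 3 receptors (right) per kilobase of the longest coding transcript, with a bar for each sample. PGF takes 53.2% to 81.1% of the ligand sum in iEC and 3.63% to 15.4% in iREC, while the receptor shares stay alike.

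**Figure D4:**
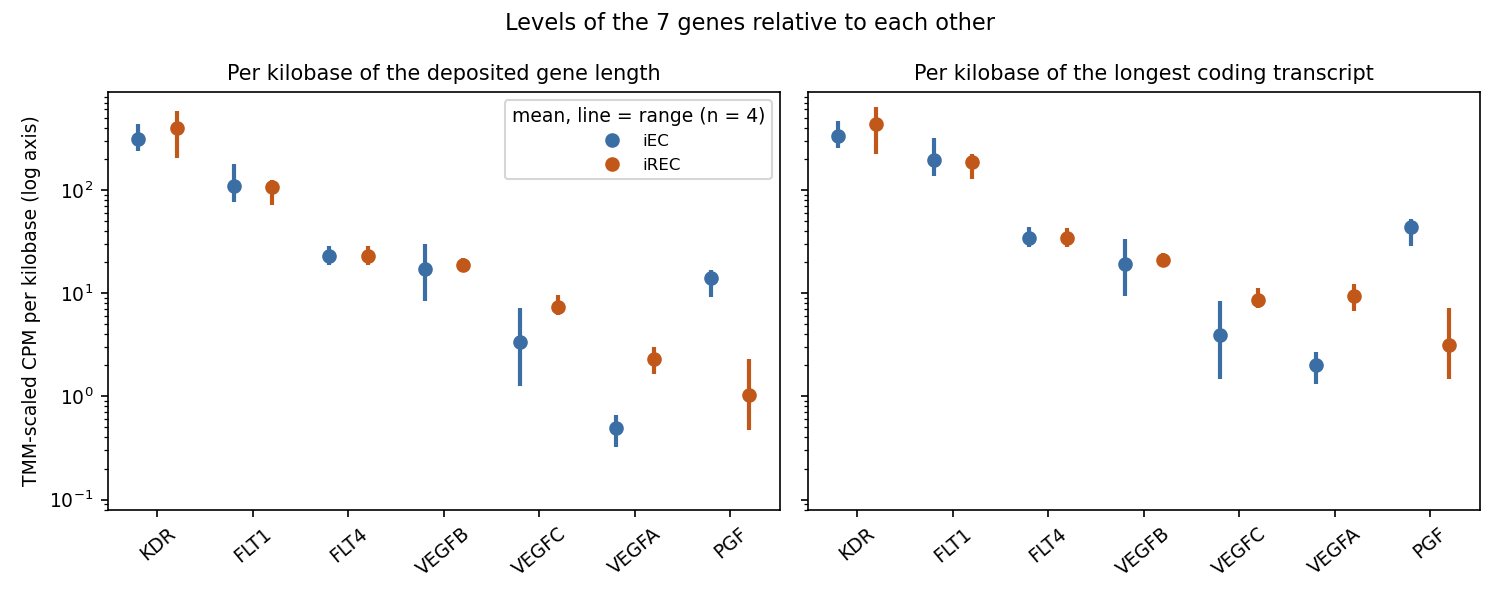
TMM-scaled CPM per kilobase (log axis) of each gene, on the deposited gene length (left) and on the longest coding transcript (right); points are means and lines the range over 4 samples. VEGFA in iEC lies at 0.494 on the left and 2.02 on the right, because its deposited length is 4.08 times the longest transcript.

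The counts are sums over all transcripts of a gene. GENCODE 29 lists 32 transcripts for VEGFA and 9 for FLT1, so the splice forms of VEGFA and the soluble form of FLT1 are not separated. The antisense gene AL136131.3 overlaps exons of VEGFA on the opposite strand. AL136131.3 is not among the genes of the deposited counts. Counting settings, such as the use of strand, are not given in the sources used here. It is therefore not known whether reads from that antisense gene were counted for VEGFA.

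The other genes of the pathway were taken from lists and described by their counts and medians, beside a median log2 fold change of 0.020 over all tested genes. Of all tested genes, 25.0% were called, 13.2% higher and 11.7% lower in iREC. By list, the share called was 70% (coreceptors and partners), 20% (VEGFC processing), 50% (signalling), 37.5% (trafficking), 60% (VEGFA-induced) and 41.2% (hypoxia). No list was tested as a set against that background. Of 10 coreceptors and receptor partners, all tested, 5 were called higher and 2 lower in iREC (median log2 fold change 1.13). NRP2, a neuropilin that acts as coreceptor of FLT4 and binds VEGFC, measured 423, 279, 433 and 557 CPM in iEC and 1207, 1187, 1649 and 740 CPM in iREC. It rose by 1.50 on the log2 scale (edgeR adjusted p 0.0039) with no overlap. NRP1, the coreceptor of KDR, stood at 236, 648, 187 and 249 CPM in iEC against 463, 607, 744 and 415 CPM in iREC. NRP1 was not called (log2 fold change 0.76, edgeR adjusted p 0.184). As for VEGFC the overlap came from iEC D, and without that sample NRP1 was called (1.32, edgeR adjusted p 0.00514). The other 7 fits with a sample left out did not call NRP1 (edgeR adjusted p up to 0.374). None of the 8 alternatives with all samples called it, limma-voom included.

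ITGAV, an integrin chain, rose by 1.77 on the log2 scale (edgeR adjusted p 3.78e-05). ITGB3, the other integrin chain of the list, and GPC1 had negative log2 fold changes, -0.62 and -0.82. Neither ITGB3 nor GPC1 was called (edgeR adjusted p 0.266 and 0.223). PTPRB, the endothelial phosphatase that restrains KDR and TEK, had means of 106 ± 25.6 CPM (iEC) and 549 ± 263 CPM (iREC; SD, n = 4) and rose by 2.37 on the log2 scale (edgeR adjusted p 0.00153). SDC2, a heparan sulfate proteoglycan, averaged 10.9 ± 7.92 and 112 ± 77.2 CPM (edgeR adjusted p 0.00323), and iREC F stood at 225 CPM where iREC C, D and E ranged from 60.5 to 95.3. Without iREC F the log2 fold change of SDC2 went from 3.36 to 2.76 (edgeR adjusted p 0.00325). CD34, a sialomucin of sprouting tip cells, rose by 1.84 and MCAM, an adhesion molecule that binds KDR, fell by 1.04 on the log2 scale (edgeR adjusted p 0.0199 and 0.00923). CDH5, the junctional cadherin that associates with KDR, fell by 0.76, a call that was lost without iEC D, E or F, without iREC D and with the replicate block (edgeR adjusted p of up to 0.0839).

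Of the 7 genes of VEGFC processing, 5 were tested and 1 was called (median 0.52). This was ADAMTS3, the protease that cleaves pro-VEGFC, at 1.69, 1.26, 0.414 and 0.215 CPM in iEC and 3.66, 5.57, 3.91 and 36.4 CPM in iREC. iREC F was far above the others, and without it the log2 fold change went from 3.77 to 2.27 (edgeR adjusted p 0.0219). The ADAMTS3 call was lost without iEC E (edgeR adjusted p 0.0558), under limma-voom and with the replicate block. CCBE1, the cofactor of that cleavage, was at most 0.296 CPM in iEC and reached 3.14 CPM in iREC D, below the filter. FURIN, a proprotein convertase that also acts on VEGFC, was not called (edgeR adjusted p 0.599).

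Of 32 signalling genes below KDR, all tested, 4 were called higher and 12 lower (median -0.27). The largest rises were in enzymes low in iEC. PLA2G4A, the phospholipase that releases arachidonic acid, averaged 0.950 ± 0.548 CPM in iEC and 29.8 ± 9.85 CPM in iREC (SD, n = 4), a rise of 4.96 on the log2 scale (edgeR adjusted p 8.87e-05). PRKCB, a protein kinase C, went from a mean of 0.661 ± 0.589 to 13.1 ± 5.21 CPM, and the adaptor SHC2 from 8.16 ± 3.78 to 26.3 ± 5.49 CPM, both called higher by edgeR (adjusted p 0.000804 and 0.00585). SPHK1, a sphingosine kinase, had means of 62.8 ± 49.8 CPM (iEC) and 4.23 ± 2.56 CPM (iREC) and was called lower (edgeR adjusted p 0.00439), although iEC C and D, at 24.0 and 16.7 CPM, were well below E and F, at 115 and 95.5. SH2D2A, an adaptor that binds phosphorylated KDR, fell by 2.30 and the SRC family kinase YES1 by 1.42 on the log2 scale (edgeR adjusted p 0.00813 and 9.78e-05). SH2D2A was near the floor, with 10 to 40 counts in iEC and 3 to 6 in iREC. PLCG1, the phospholipase that couples KDR to ERK signalling, fell by 0.62 (edgeR adjusted p 0.00211). NOS3, the endothelial nitric oxide synthase, was not called (log2 fold change 0.28, edgeR adjusted p 0.364).

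Of 16 genes of receptor trafficking and dephosphorylation, all tested, 1 was called higher and 5 lower (median -0.23). DAB2, an endocytic adaptor, averaged 149 ± 51.2 CPM in iEC and 768 ± 214 CPM in iREC (SD, n = 4), a rise of 2.36 on the log2 scale (edgeR adjusted p 0.000477). STX6, a syntaxin of the trans-Golgi route by which KDR reaches the surface, fell by 0.75, RAB11A, a recycling GTPase, by 0.63 and the scaffold IQGAP1 by 0.71 on the log2 scale, all called by edgeR (adjusted p 0.00436, 0.00841 and 0.0042).

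Of 17 genes known to be induced by VEGFA in endothelial cells, 15 were tested. In iREC, where VEGFA itself was higher, 7 of these were called lower and 2 higher, with a median log2 fold change of -0.96. ANGPT2, the vessel-destabilising TEK ligand, measured 1776, 1454, 2001 and 1877 CPM in iEC and 25.8, 33.0, 26.4 and 20.7 CPM in iREC (log2 fold change -6.07 ± 0.21, SE; edgeR adjusted p 1.49e-06). ESM1, a tip cell proteoglycan, had means of 452 ± 62.7 CPM (iEC) and 60.3 ± 12.8 CPM (iREC), and APLN, the tip cell peptide apelin, 2133 ± 486 and 199 ± 123 CPM (SD, n = 4). Both fell (edgeR adjusted p 2.1e-05 and 0.00362). APLN was lowest in iREC F, at 27.6 CPM, while iREC C, D and E ranged from 196 to 301. ADAMTS1 and PTGS2 went the other way, rising by 1.50 and 1.92 on the log2 scale (edgeR adjusted p 0.00995 and 0.00948). DLL4, the Notch ligand of tip cells, was not called (edgeR adjusted p 0.55). Without iREC F the list again had 7 lower and 2 higher. With any other sample left out, fewer of its genes were called, 6 to 8 against 9. The list holds genes that answer to other inputs as well as VEGFA, and how much VEGFA protein reached the cells was not measured.

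Of 18 genes of hypoxia control of VEGFA, 17 were tested, with 5 called higher and 2 lower (median 0.12). EPAS1, the hypoxia-inducible factor subunit prominent in endothelium, stood at 376, 743, 362 and 767 CPM in iEC and 1688, 1504, 1797 and 1474 CPM in iREC (log2 fold change 1.52, edgeR adjusted p 0.0034). HIF1A was not called (log2 fold change -0.30, edgeR adjusted p 0.143). Among targets of these factors, ADM rose by 0.99 and NDRG1 fell by 1.29 on the log2 scale (edgeR adjusted p 0.00797 and 0.00131). The bearing of this list on the VEGFA difference was not tested. The calls of EGLN3 (higher) and LDHA (lower) were lost in 6 and 7 of the 8 fits with a sample left out. The count for this list fell from 7 to 4 without iEC C, without iEC F and without iREC D.

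**Figure D5:**
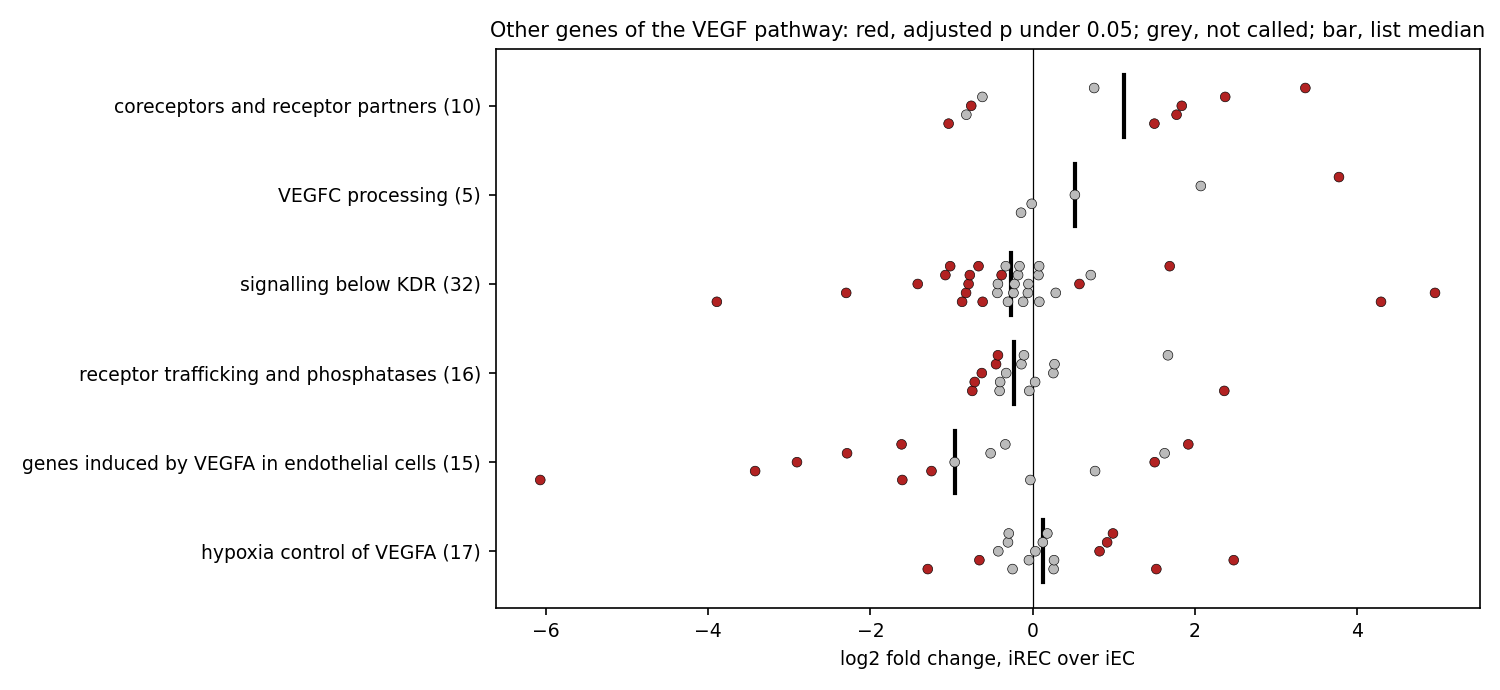
Log2 fold change of iREC over iEC (x axis) for each tested gene of 6 lists, with the number tested in parentheses; red points passed an adjusted p of 0.05 by edgeR, and the bar is the list's median. ANGPT2 at -6.07 is the point farthest left, and the medians run from -0.96 for the VEGFA-induced genes to 1.13 for the coreceptors and partners.

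To name genes whose level followed each member over the 8 samples, log2 CPM profiles centred on their own mean were compared by root mean square distance among 9524 protein-coding genes. VEGFA lay closest to TPM1, a tropomyosin (distance 0.28 log2 units), FBN1, the microfibril protein fibrillin (0.31), and CYBRD1, a ferric reductase (0.31), against a median distance of 1.26 over all genes compared. TPM1 rose from 227 to 1042 CPM and FBN1 from 73.9 to 356 CPM. PGF lay closest to BTBD11 (0.37), NRIP3 (0.43) and A2M, the protease inhibitor alpha-2-macroglobulin (0.48), against a median of 2.10. A2M fell from 236 to 22.2 CPM in the group means. VEGFC lay closest to SEL1L3 (0.37), EPAS1 (0.45) and PAQR8 (0.45), against a median of 1.02. For KDR the nearest was HIP1R (0.13), for FLT1 FBXL7 (0.18), for VEGFB NRBP2 (0.20) and for FLT4 USP6NL (0.064). The profiles of these last 4 members varied little, by 0.24 to 0.53 log2 units, so genes with small variation lie close to them in any case. Those of VEGFA and PGF, by 1.20 and 2.11 log2 units, are mostly the difference between the groups. Genes with a similar group difference therefore lie close to VEGFA or PGF. The rise of TPM1 and FBN1 and the fall of A2M follow from how these genes were chosen.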

How the data were processed

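Poly-A RNA of 8 samples was sequenced from libraries whose second cDNA strand carried dUTP, per the labels' protocols. Per the submitters' processing notes, fastp and HISAT2 2.0.5 were used on hg38; the counting program is not given in the sources used here. The authors deposited raw read counts per gene, a signal equal to those counts divided by a size factor per sample, FPKM values, and their own log2 fold changes and p-values with no stated test, per the file headers. Identifiers, starts and ends of all 30386 rows matched GENCODE 29. Total counts ran from 13739364 to 16971865 per library.

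From the counts, 15330 genes kept by filterByExpr were tested in edgeR 4.0.16 (TMM, glmQLFit, glmQLFTest, group only, 8 samples, Benjamini-Hochberg adjustment over all tested genes, threshold 0.05). Standard errors and 95% intervals were derived from the coefficient and the F statistic. Floors cover counting error only. Ratios used a pseudocount of 0.5 counts. Alternatives were other scalings, a stricter filter (1 CPM or more throughout a group, with mean counts of 50 or more) or none, DESeq2 1.42.0, limma-voom (limma 3.58.1), a replicate block and each sample left out. The fit was tested on simulated counts. The rule named all 7 members, up to 3 called genes in each direction per list, and the 3 nearest profiles per member (mean of at least 10 CPM); any other list gene could be named. ITGAV, ITGB3, GPC1, NRP1, NRP2, PLCG1, NOS3, FURIN, CCBE1, DLL4 and HIF1A were picked from the lists after their values were seen. The members and lists were chosen with earlier results of these data known. A further 2 gene lengths were added as alternatives after the data were seen.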

Additional observations from a re-analysis of the deposited data

Results flagged for a closer look

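In iREC the PGF level of sample F, 13.8 CPM, lay far from the other 3 samples, at 2.81 to 4.15 CPM. The gap to the nearest sample was 0.878 of the group's range, above Dixon's 95% critical value for 4 samples. This was the only such case among 36 groups of 4 examined (each member's CPM and log2 CPM and each log2 ratio), of which chance gives about 1 in 20, and on the log2 scale the sample did not pass.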

How the results depend on the processing

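VEGFA and PGF kept direction and call under all 8 alternatives with all samples and all 8 fits without a sample; their log2 fold changes without a sample ran from 2.05 to 2.39 and from -4.57 to -3.55. VEGFC was called under limma-voom (1.40), and without a sample ran from 0.84 to 1.78. Members never called changed sign near 0: VEGFB ran from -0.097 to 0.55 without a sample; FLT1 from -0.17 to 0.30, at 0.015 under limma-voom and 0.016 with the replicate block; FLT4 from -0.11 to 0.15, at -0.0048 with DESeq2 size factors, -0.016 with no filter and -0.0048 under DESeq2. KDR ran from 0.14 to 0.59. The called members numbered 2 to 3 without a sample, with 1 to 2 higher, and 2 higher under limma-voom. Called VEGFC processing genes numbered 2 with no filter and under DESeq2, 0 under limma-voom and with the replicate block, and 0 to 2 without a sample; hypoxia genes 4 to 6 without a sample and 5 with the replicate block, against 7. The cause of these differences was not tested. All genes called numbered 3829, from 2621 to 4086 without a sample, 3334 with the replicate block and 4954 under DESeq2. Deviations of samples with the same letter correlated across genes at 0.17 (C), -0.079 (D), 0.029 (E) and 0.25 (F). Those of different letters ran from -0.22 (iEC D with iREC F) to 0.18 (iEC D with iREC C). Only the value of F lay above that range, so the letters are not taken as pairs. Per-length ranks moved with transcript length, and with the group median VEGFB and PGF changed places in iEC. Depth limits VEGFD and CCBE1.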
